A study of Mus musculus with 12 samples.

Results

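Transmitter identity genes encode the synthesis enzymes and transporters that mark a neuron by the transmitter it releases. The 10 genes described here were taken by name from the 21643 rows of the deposited count table, and each was found on exactly 1 row. They are Slc17a6 and Slc17a7 for glutamate, Gad1, Gad2 and Slc32a1 for GABA, Slc6a5 for glycine, Th for dopamine and noradrenaline, Tph2 for serotonin, Slc18a2 for all monoamines and Chat for acetylcholine. RNA was sequenced from the brains of 12 mice of the 5xFAD genotype, a transgenic model of amyloid deposition in which, as background, human transgenes with familial mutations are driven by the neuronal Thy1 promoter. All mice carry this genotype, so no group shows a brain without the transgenes. The mice fell into 4 groups of 3 by treatment, named Control, PBS (phosphate-buffered saline), PAP-1 and ShK-223. Both inhibitors block the potassium channel Kv1.3, PAP-1 as a small molecule and ShK-223 as a peptide. Strain is given as not specified, and age, sex, dose, route, duration and the treatment of the Control mice were not given in the sources used here.

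Glutamate is loaded into vesicles by VGLUT1 (Slc17a7), which in the forebrain marks cortical and hippocampal neurons, or by VGLUT2 (Slc17a6), which marks thalamic, hypothalamic and brainstem neurons. GABA is made by the glutamate decarboxylases GAD67 (Gad1) and GAD65 (Gad2), and both GABA and glycine enter vesicles through VGAT (Slc32a1). Glycine neurons, which lie mainly in brainstem, spinal cord and cerebellum, also need the plasma membrane transporter GlyT2 (Slc6a5). Tyrosine hydroxylase (Th), tryptophan hydroxylase (Tph2) and choline acetyltransferase (Chat) are each found in small groups of neurons with local addresses, among them the midbrain for Th, the raphe for Tph2 and the striatum, basal forebrain and motor nuclei for Chat.

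The upstream sequences of 4 members are shown because these genes lie at the 2 ends of the results below: Slc17a7 was higher in both inhibitor groups than in PBS, Slc32a1 was lower in both, Th was lower in the ShK-223 group, and Slc17a6 is the closest relative of Slc17a7 but did not follow it. Each line gives the 250 bases before the first annotated start site, 5′ to 3′ on the strand of the gene, from RefSeq on GRCm38.p6, where all 10 members matched a start site.
Slc17a7, chr7:45163671-45163920, plus strand: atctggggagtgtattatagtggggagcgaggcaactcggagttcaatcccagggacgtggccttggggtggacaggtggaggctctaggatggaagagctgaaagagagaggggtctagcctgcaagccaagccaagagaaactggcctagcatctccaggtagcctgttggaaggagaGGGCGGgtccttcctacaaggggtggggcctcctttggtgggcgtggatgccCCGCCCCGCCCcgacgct
Slc17a6, chr7:51621580-51621829, plus strand: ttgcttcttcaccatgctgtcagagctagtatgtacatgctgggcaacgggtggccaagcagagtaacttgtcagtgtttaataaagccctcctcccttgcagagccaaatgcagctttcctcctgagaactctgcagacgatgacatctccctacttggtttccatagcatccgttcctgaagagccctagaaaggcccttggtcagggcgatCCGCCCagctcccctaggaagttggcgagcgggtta
Slc32a1, chr2:158610508-158610757, plus strand: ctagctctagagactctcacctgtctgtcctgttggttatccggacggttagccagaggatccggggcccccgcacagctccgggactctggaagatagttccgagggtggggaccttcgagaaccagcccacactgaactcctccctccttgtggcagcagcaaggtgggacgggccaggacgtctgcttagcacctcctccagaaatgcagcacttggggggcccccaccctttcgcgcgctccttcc
Th, chr7:142899996-142900245, minus strand: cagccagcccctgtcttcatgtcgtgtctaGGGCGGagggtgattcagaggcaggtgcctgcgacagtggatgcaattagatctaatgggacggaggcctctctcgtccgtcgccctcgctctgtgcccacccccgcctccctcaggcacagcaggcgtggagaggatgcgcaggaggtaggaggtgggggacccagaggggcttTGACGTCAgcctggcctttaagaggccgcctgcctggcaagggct
Capitals mark matches on either strand to the GC box GGGCGG or the cyclic AMP response element; the TATA element TATAAA and the CAAT box CCAAT were searched too and have no match in these windows. The GC box occurred 3 times before Slc17a7, 2 of them on the reverse strand and overlapping by their end base, and once each before Slc17a6 and Th, and it was present in 32.7% of all 32851 windows of this length. The cyclic AMP response element TGACGTCA, which holds the core TGACG on both strands, was found before Th at -45 to -38 from the start and in 1.55% of all windows. None of these motifs was found before Slc32a1, which says only that these letters are not in that window. That core was in 17.8%, the CAAT box in 33.8% and the TATA element in 12.4% of windows.

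Library totals ran from 14364013 to 19048551 counts, and 16662 to 17142 genes had at least 1 count. Although every library is labelled whole brain, markers of brain regions differed between libraries. The summed level of 12 cerebellum markers was 8671 to 9545 CPM in PBS (CPM are counts scaled to a common library total), 8478 CPM in Control 2 and 1879 CPM in PAP-1 1, and 518 to 1094 CPM in the other 7 libraries, in which 10 to 12 of the markers still had a count. A cerebellar index, the mean over these markers of each library's CPM relative to the highest library, was 0.810 to 0.991 in Control 2 and PBS, 0.166 in PAP-1 1 and 0.0200 to 0.0294 elsewhere. Cortex and hippocampus markers summed to 175 to 303 CPM in PBS, 773 to 1152 CPM in ShK-223, 929 to 1262 CPM in PAP-1 and 474 to 754 CPM in Control. Markers of all neurons summed to 6986 to 9320 CPM in the 12 libraries. Control 2 thus resembled PBS on the cerebellum markers, and Control 1 and 3 did not. Its column in the count table also carries another sequencing lane tag than the other 11, and whether its label is right could not be checked from the files.

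Compared per kilobase of exon, Slc17a7 was the most abundant member in all 12 libraries. It reached 216 ± 90.9 CPM per kb (SD over 12 libraries), followed by Gad1 at 51.0 ± 12.3, Gad2 at 34.8 ± 7.99 and Slc32a1 at 29.9 ± 8.11 CPM per kb. The ranges of Gad1, Gad2 and Slc32a1 overlap, and these 3 genes exchanged places between libraries. Slc17a6 came next at 6.26 ± 3.35 and Slc6a5 at 4.23 ± 5.81 CPM per kb, and these do not differ beyond their spread. Th (1.95 ± 1.75), Slc18a2 (1.08 ± 0.222), Chat (0.604 ± 0.591) and Tph2 (0.289 ± 0.121 CPM per kb) were the least abundant, and of these neighbours only Slc18a2 and Tph2 do not overlap in SD. On the log2 CPM scale the SD over the 12 libraries was 3.60 for Slc6a5, 1.47 for Th and 1.46 for Chat, against a median of 0.29 over all 15061 genes tested. Gad2 at 0.30, Slc18a2 at 0.31 and Gad1 at 0.34 lay near that median.

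**Figure D1:**
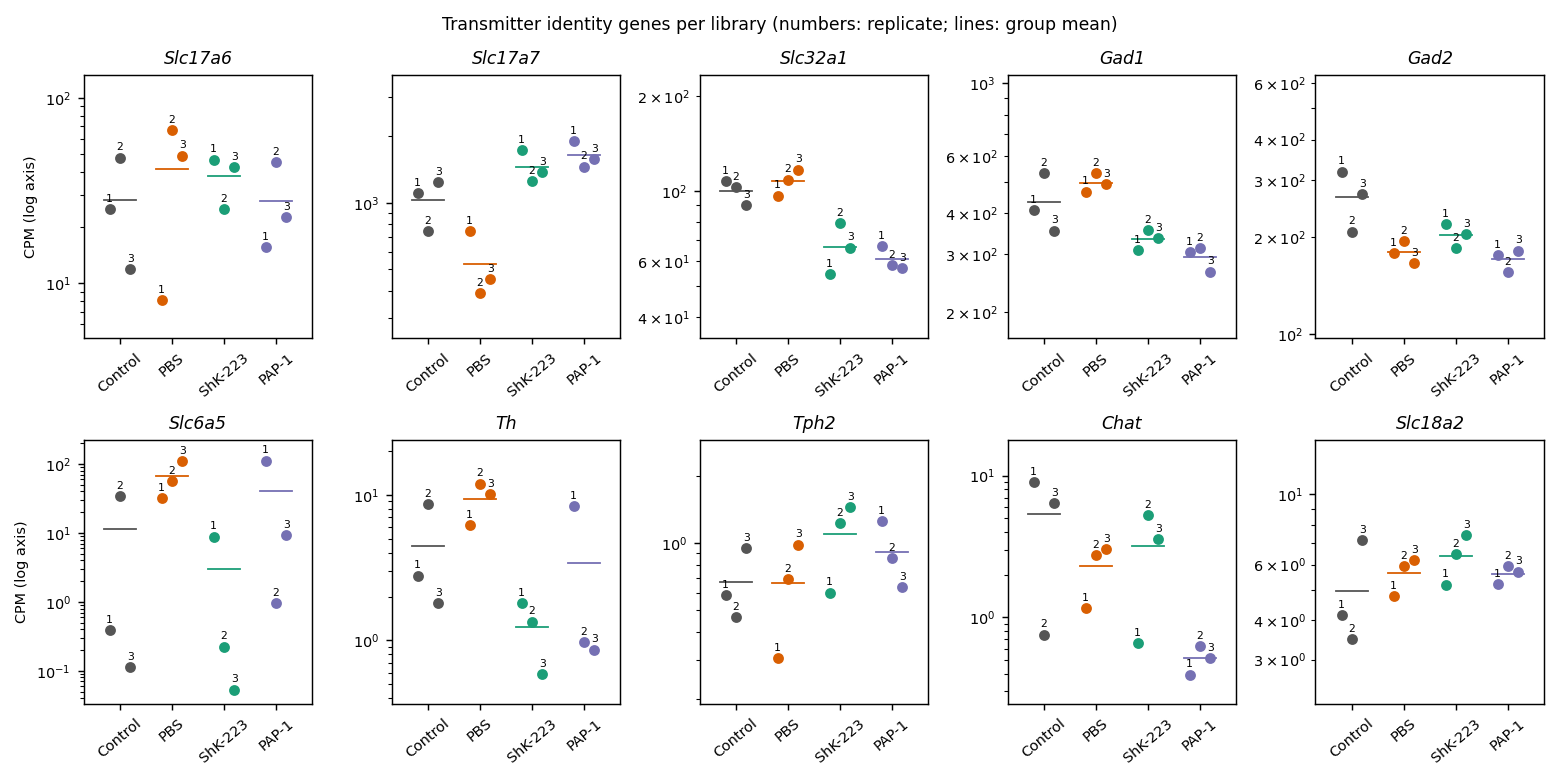
CPM of each of the 10 genes (vertical axis, log scale, a range of its own in every panel) in the 3 libraries of each group (points, numbered by replicate), with the group mean as a line. Slc17a7 is lowest in PBS, Slc32a1 and Gad1 are lower in both inhibitor groups than in PBS, and Control 2 lies near PBS for Gad1, Slc6a5 and Th.

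Slc17a7, which in the forebrain marks cortical and hippocampal neurons, separated PBS from both inhibitor groups. It was at 745, 389.9 and 452 CPM in PBS 1, 2 and 3, at 1726, 1258 and 1376 CPM in ShK-223, and at 1903.5, 1458.5 and 1583 CPM in PAP-1. Every inhibitor library was above every PBS library. It rose by a log2 fold change of 1.46 (SE 0.26, adjusted p = 0.00554, n = 3 against 3) with ShK-223 and by 1.64 (SE 0.26, adjusted p = 0.00269) with PAP-1. In Control 1, 2 and 3 it was at 1108, 746 and 1241 CPM, so that Control 2 lay within 2 CPM of PBS 1. Beside this result, cortex and hippocampus markers moved the same way: 9 of 10 were called higher with ShK-223 and 10 of 10 with PAP-1, and Neurod6, a transcription factor of cortical and hippocampal excitatory neurons, was at 8.19 to 16.0 CPM in PBS and 54.5 to 93.4 CPM in the inhibitor libraries. The marker counts here stand against 18.8% of all genes called higher and 20.3% lower with ShK-223, and 21.1% and 22.6% with PAP-1. Microglia markers were called higher in 8 of 8 with ShK-223 and 5 of 8 with PAP-1. They summed to 214 to 441 CPM in PBS, 753 to 839 CPM in ShK-223 and 628 to 901 CPM in PAP-1. Oligodendrocyte markers were called lower in 6 of 8 with PAP-1 (1837 to 3642 CPM against 3860 to 7265 CPM in PBS) and in 0 of 8 with ShK-223. The part of these cells in the results was not tested. In bulk RNA, fewer cells of a type and less RNA per cell cannot be told apart.

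Slc17a6, the glutamate transporter of thalamus and brainstem, did not follow its relative. It was at 8.08, 66.7 and 48.7 CPM in PBS, at 46.5, 25.1 and 42.4 CPM in ShK-223, at 15.6, 45.1 and 22.7 CPM in PAP-1 and at 25.1, 47.6 and 11.9 CPM in Control. All 4 groups overlap, and the highest PBS library held 8.25 times as much as the lowest. No comparison called it (adjusted p = 0.908 for ShK-223 and 0.531 for PAP-1 against PBS). The share of Slc17a7 in the sum of both transporters, per kilobase, was 91.5 ± 6.85% in PBS, with 98.9% in PBS 1 and 85.4% in PBS 2, against 97.5 ± 0.524% in ShK-223, 98.3 ± 1.13% in PAP-1 and 97.0 ± 2.62% in Control (SD, n = 3). An exact two-sided permutation test gave p = 0.4 for ShK-223 and p = 0.3 for PAP-1 against PBS. The 8 thalamus markers summed to 438 to 566 CPM in PBS, 143 to 346 CPM in ShK-223 and 112 to 174 CPM in PAP-1. Averaged over these markers as for the cerebellar index, however, the groups overlapped. The averages were 0.422 to 0.552 in PBS, 0.310 to 0.787 in ShK-223 and 0.214 to 0.441 in PAP-1. The part of this region in the level of Slc17a6 was not tested.

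Among the GABA genes, the vesicle transporter and one synthesis enzyme were lower with both inhibitors, and the other enzyme was not called. Slc32a1 was at 96.6, 109 and 117 CPM in PBS, at 54.7, 78.9 and 66.2 CPM in ShK-223 and at 66.9, 58.2 and 57.0 CPM in PAP-1. All inhibitor libraries lay below all PBS libraries and also below the 3 Control libraries, which held 107, 103 and 90.1 CPM. Against Control, edgeR called Slc32a1 for neither inhibitor (adjusted p = 0.722 for ShK-223 and 0.171 for PAP-1). Against PBS Slc32a1 fell by 0.69 on the log2 scale (SE 0.14, adjusted p = 0.00707) with ShK-223 and by 0.82 (SE 0.14, adjusted p = 0.00291) with PAP-1. Control 2, with high cerebellum markers, lay between Control 1 and 3, with low ones. Control 1 and 3 also held more striatum markers, summing to 2230 and 1699 CPM against 339 CPM in Control 2. The part of either region in the level of Slc32a1 was not tested. In GENCODE an antisense gene shares 697 exon bases with Slc32a1, and since the strand setting of the counting is not given, their reads cannot be told apart.

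Gad1 was at 467, 532 and 491 CPM in PBS, at 309, 356 and 337 CPM in ShK-223 and at 305, 314 and 265 CPM in PAP-1. No inhibitor library reached the lowest PBS library. It fell by 0.57 (SE 0.14, adjusted p = 0.0122) with ShK-223 and by 0.75 (SE 0.14, adjusted p = 0.00419) with PAP-1. In Control it was at 409.7, 532 and 355 CPM, and only Control 2 was as high as PBS.

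Gad2 was at 178, 193 and 166 CPM in PBS, at 219, 184 and 203 CPM in ShK-223 and at 176, 155 and 181 CPM in PAP-1. PBS overlapped with each inhibitor group, while every ShK-223 library was above every PAP-1 library. Its log2 fold change against PBS was 0.17 (SE 0.14, adjusted p = 0.352) for ShK-223 and -0.07 (SE 0.14, adjusted p = 0.715) for PAP-1. In Control it was higher, at 318, 207 and 271 CPM.

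The ratio of the 2 decarboxylases, per kilobase, differed between libraries. Gad1 over Gad2 was 2.02, 2.12 and 2.27 in PBS, 1.09, 1.49 and 1.27 in ShK-223, 1.33, 1.56 and 1.13 in PAP-1 and 0.990, 1.97 and 1.00 in Control. The 4 libraries at 1.97 or above are those with a cerebellar index of 0.810 or more, and PAP-1 1, at an index of 0.166, lay among the other libraries of its group. The ratio of both glutamate transporters to Slc32a1 ran the other way, at 4.04, 2.18 and 2.23 in PBS and 4.00 in Control 2, against 5.47 and 7.22 in Control 1 and 3, 8.44 to 16.8 in ShK-223 and 13.4 to 14.9 in PAP-1. For both ratios the exact two-sided permutation test of each inhibitor against PBS gave p = 0.1, the smallest that 3 against 3 libraries allow (0.24 after Benjamini-Hochberg adjustment over the 12 ratio tests).

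**Figure D2:**
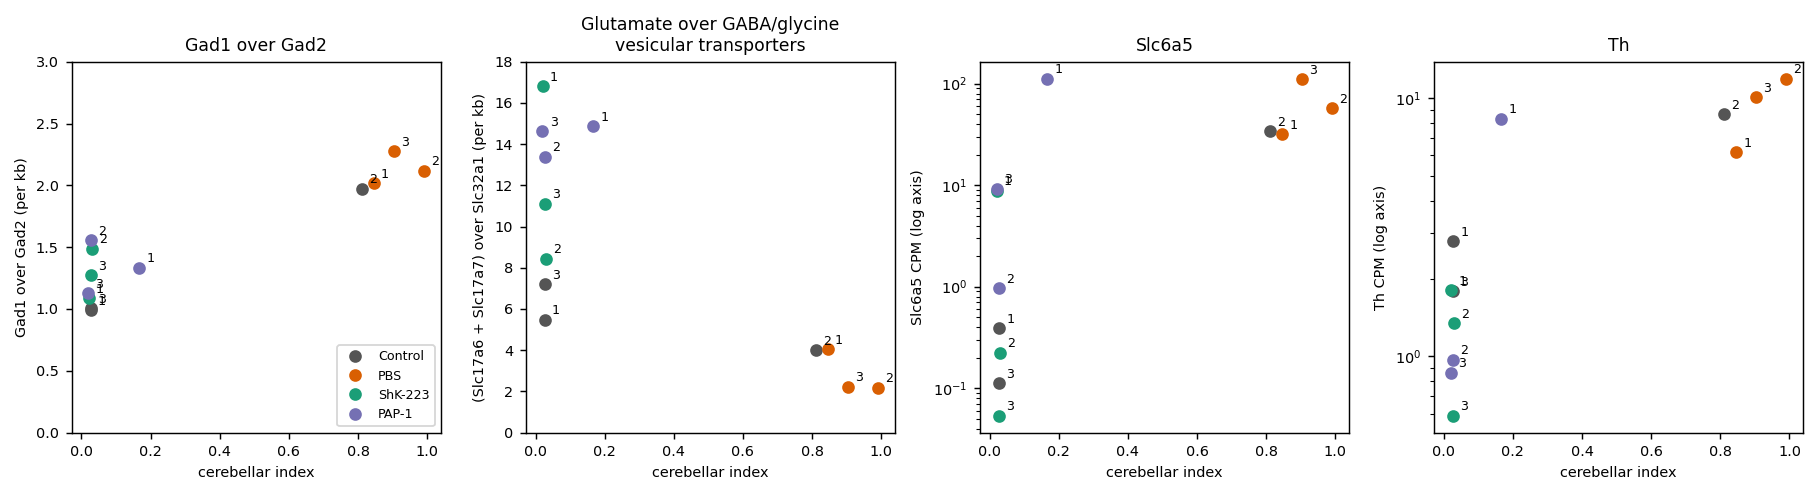
Each point is 1 library, with its cerebellar index (0 to 1, no unit) on the horizontal axis and, from left to right, Gad1 over Gad2 per kilobase, both vesicular glutamate transporters over Slc32a1 per kilobase, Slc6a5 CPM (log axis) and Th CPM (log axis). Control 2 sits with PBS in all 4 panels, and PAP-1 1 reaches 112 CPM of Slc6a5 at an index of 0.166.

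Slc6a5, the transporter that glycine neurons use to recover glycine, had the widest range of all members. It was at 31.7, 57.0 and 111 CPM in PBS, at 8.84, 0.224 and 0.0536 CPM in ShK-223, at 112, 0.971 and 9.27 CPM in PAP-1 and at 0.389, 34.2 and 0.112 CPM in Control. The raw counts behind these values run from 1 to 1803. All ShK-223 libraries were below all PBS libraries, yet the fold change of -4.45 (SE 2.05, adjusted p = 0.105) was not called, and that of PAP-1 was -0.71 (SE 1.73, adjusted p = 0.761). With PBS and ShK-223 alone in the fit the adjusted p was 0.0183. PAP-1 1 held as much Slc6a5 as PBS 3 with less of the cerebellum markers (1879 against 8671 CPM), and summed Hox gene markers of the hindbrain were 0.263 CPM in PAP-1 1, 30.3 CPM in PBS 3 and 2.34 CPM in PBS 2, and at most 1.80 CPM elsewhere. The part of these regions in the level of Slc6a5 was not tested. Glra1, a glycine receptor subunit, was at 16.3 and 23.1 CPM in PBS 2 and 3 and at 11.2 CPM in PAP-1 1, and at 0.392 to 7.10 CPM in the other 9 libraries.

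Th, which makes the precursor of dopamine and noradrenaline, was lower with ShK-223. It was at 6.18, 11.9 and 10.1 CPM in PBS, at 1.80, 1.34 and 0.589 CPM in ShK-223, at 8.34, 0.971 and 0.863 CPM in PAP-1 and at 2.79, 8.66 and 1.79 CPM in Control. The raw counts were 101 to 173 in PBS and 11 to 33 in ShK-223. It fell by 2.91 on the log2 scale (SE 0.91, adjusted p = 0.0297) with ShK-223. Leaving out any library of this comparison other than PBS 1 ended that call, at adjusted p between 0.0564 and 0.0938. With PAP-1 the change of -1.48 (SE 0.85, adjusted p = 0.179) was not called by edgeR, nor by DESeq2 (-1.45, adjusted p = 0.137), while limma-voom called it (-2.28, adjusted p = 0.0322). Without PAP-1 1, which lies inside the PBS range, it was -3.35 (adjusted p = 0.0115). The 5 libraries with 6.18 CPM or more are PBS 1 to 3, Control 2 and PAP-1 1, the same 5 that hold the most cerebellum markers. The olfactory bulb is a region whose interneurons include dopamine neurons. Its 8 markers summed to 429 to 483 CPM in PBS, 396 CPM in Control 2 and 103 CPM in PAP-1 1, against 28.3 to 76.5 CPM in the other 7 libraries. These are again the 5 libraries with the most cerebellum markers, so this sum cannot tell olfactory bulb from cerebellum. Averaged over the olfactory bulb markers as for the cerebellar index, however, PAP-1 1 was at 0.281, below Control 1 at 0.367 and PAP-1 3 at 0.304. The part of either region in the level of Th was not tested.

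The partners of Th that mark dopamine and noradrenaline neurons were scarce, and their order of libraries matched that of Th only in part. Slc6a3, the dopamine transporter, was highest in PBS 2 (1.03 CPM) and PAP-1 1 (0.788 CPM) and was not tested. Dbh, which turns dopamine into noradrenaline, was highest in PBS 3 (1.48 CPM) and PBS 2 (1.45 CPM), the libraries with the most Th. Dbh had 0 counts in Control 2, where Th was at 8.66 CPM. Ddc, the decarboxylase shared by dopamine and serotonin synthesis, was at 2.96 to 7.00 CPM, with its lowest value in PAP-1 1. Slc18a2, which fills vesicles in all monoamine neurons, was at 4.78 to 6.21 CPM in PBS, 5.19 to 7.44 CPM in ShK-223, 5.19 to 5.94 CPM in PAP-1 and 3.49 to 7.17 CPM in Control. All its groups overlap and no comparison called it (adjusted p = 0.605 and 0.988 for ShK-223 and PAP-1 against PBS). An antisense gene shares 111 of its exon bases in GENCODE.

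Tph2, the enzyme of serotonin synthesis in the brain, was near the limit of what this depth measures. It was at 0.306, 0.688 and 0.983 CPM in PBS, 0.600, 1.23 and 1.45 CPM in ShK-223, 1.25, 0.857 and 0.633 CPM in PAP-1 and 0.584, 0.465 and 0.952 CPM in Control, from 5 to 27 raw counts per library. The groups overlap, and a difference was not detectable at this depth (adjusted p = 0.262 and 0.479 for ShK-223 and PAP-1 against PBS). Slc6a4, the serotonin transporter, had at most 7 counts and Fev, a transcription factor of serotonin neurons, at most 3 counts in any library.

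Chat, the enzyme of acetylcholine synthesis, was lowest in PAP-1. The 3 libraries of that group held 0.394, 0.628 and 0.518 CPM, from 6 to 11 raw counts. It was at 1.16, 2.75 and 3.01 CPM in PBS, at 0.655, 5.26 and 3.59 CPM in ShK-223 and at 8.95, 0.755 and 6.44 CPM in Control. Every PAP-1 library was below every library of the other 3 groups. Against PBS the change of -2.14 (SE 0.93, adjusted p = 0.0826) was not called by edgeR, while the adjusted p was 0.0319 in DESeq2 and 0.00916 with PAP-1 and PBS alone in the fit. Slc18a3 and Slc5a7, the vesicular acetylcholine and the choline transporter, fell with PAP-1 by 2.94 (SE 0.99, adjusted p = 0.0341) and 2.24 (SE 0.79, adjusted p = 0.0407). Slc18a3 had only 1, 5 and 9 counts in PAP-1, and 10, 55 and 42 in PBS. PBS 1, at 0.612 CPM of Slc18a3 and 1.84 CPM of Slc5a7, lay just above the highest PAP-1 values, 0.518 and 1.71 CPM. Control 2 lay inside the PAP-1 range for both, at 0.29 and 1.34 CPM. Slc18a3 lies inside the Chat gene on the same strand but shares 0 exon bases with it. Ache, the esterase that degrades acetylcholine, was at 51.9 to 95.9 CPM in the 12 libraries and was not called in either comparison.

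Chat went with the level of striatum markers in some libraries and not in others. The summed level of 10 striatum markers reached 2230 CPM in Control 1, 1699 CPM in Control 3, 1537 CPM in ShK-223 2 and 770.2 CPM in ShK-223 3, and lay between 219 and 498 CPM in the other 8 libraries. The same 4 libraries hold the 4 highest Chat levels, 3.59 to 8.95 CPM. PBS 2 and 3 follow at 2.75 and 3.01 CPM with only 313 and 331 CPM of striatum markers. These 2 libraries had Slc5a7 at 9.43 and 6.33 CPM and Slc18a3 at 3.79 and 2.58 CPM, and they are the only ones in which all 10 hindbrain Hox markers had a count. The part of these regions in the level of Chat was not tested.

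**Figure D3:**
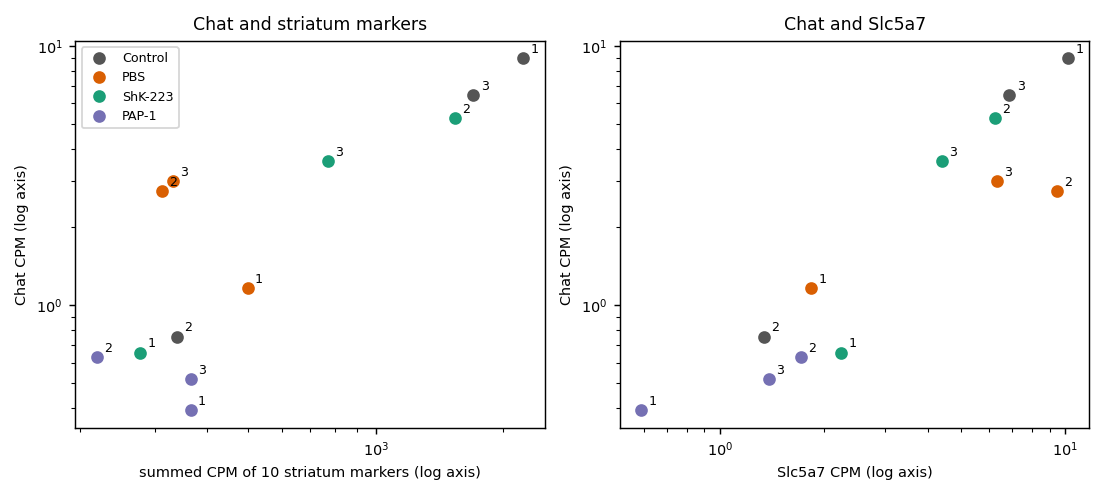
Chat CPM (vertical axes, log scale) in each of the 12 libraries against the summed CPM of 10 striatum markers (left) and against Slc5a7 CPM (right), both on log axes, with replicate numbers beside the points. Control 1 and 3 and ShK-223 2 and 3 are high on both, PBS 2 and 3 are high in Slc5a7 but not in striatum markers, and the 3 PAP-1 libraries are the lowest in Chat.

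The first comparison set the peptide against the PBS group. All 10 members passed the filter on low counts. Of these, 1 rose (Slc17a7) and 3 fell (Slc32a1, Gad1 and Th), against 39.1% of all 15061 genes tested, 18.8% higher and 20.3% lower. The 4 calls among 10 members are near that background. The median log2 fold change of the members was 0.03, against -0.01 over all genes. Within batch CH, the only batch that holds both groups (2 ShK-223 libraries and 1 PBS library), the log2 differences were 1.98 for Slc17a7, -0.85 for Slc32a1, -0.72 for Gad1 and -3.37 for Th. With batch as a term all 4 calls ended, at adjusted p = 0.0706, 0.066, 0.0938 and 0.11 and log2 values of 1.37, -0.71, -0.48 and -2.97, and 4 of all 15061 genes were still called. When the cerebellar index entered the fit, the values were 0.69, -0.56, -0.01 and -0.06, and 0 of all 15061 genes were called, these 4 included. The index was 0.845 to 0.991 in PBS and 0.0208 to 0.0294 in ShK-223, so index and group can hardly be told apart. The values with the index are therefore no corrected effects.

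The second comparison set the small molecule against the PBS group. Slc17a7 rose and Slc32a1 and Gad1 fell, which makes 3 of 10 members against 43.7% of all genes, 21.1% higher and 22.6% lower. The median of the members was -0.64, against -0.01 over all genes. Both comparisons share the PBS libraries, so their similarity is no independent evidence. Within batch C (1 PAP-1 library and 2 PBS libraries) the log2 differences were 1.33 for Slc17a7, -0.87 for Slc32a1 and -0.61 for Gad1. When the cerebellar index entered the fit, they were 0.92, -0.70 and -0.22, and again 0 of all genes were called. With an index of 0.0200 to 0.166 in PAP-1, index and group can hardly be told apart here either. DESeq2 called 4 members and 7094 genes in this comparison, and limma-voom 4 members and 6461 genes.

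**Figure D4:**
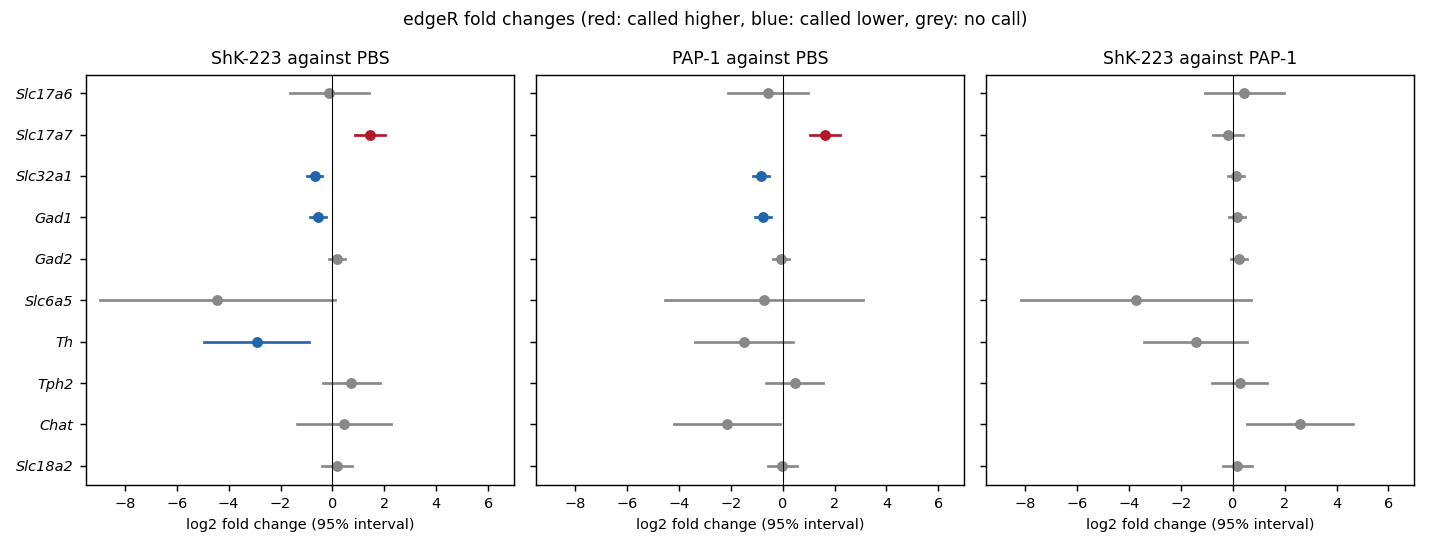
Log2 fold changes from edgeR (points) with 95% intervals (lines) of the 10 genes for ShK-223 against PBS, PAP-1 against PBS and ShK-223 against PAP-1, coloured red where called higher, blue where called lower and grey where not called. Slc17a7, Slc32a1 and Gad1 are called in both comparisons with PBS, and no gene is called between the inhibitors.

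The peptide and the small molecule were also compared with each other, at doses and durations the sources used here do not give. No member was called between them, 0% of all genes were called by edgeR, and 1 member and 684 genes had an unadjusted p under 0.05, while DESeq2 called 0 members and 5 genes and limma-voom called none. The 95% intervals of the log2 difference (ShK-223 minus PAP-1) were -0.75 to 0.39 for Slc17a7, -0.17 to 0.43 for Slc32a1, -0.13 to 0.49 for Gad1 and -0.07 to 0.56 for Gad2, so differences within these bounds remain possible. The member with the unadjusted p under 0.05 was Chat, named here after its values were seen, at 2.60 (SE 0.92, 0.56 to 4.64, adjusted p = 0.984). ShK-223 1, at 0.655 CPM, lay close to the PAP-1 range, and ShK-223 2 and 3, which carry the high striatum markers of that group, lay above it. Within batch B (1 ShK-223 library and 2 PAP-1 libraries) the log2 difference of Chat was 3.24.

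PBS against Control showed Gad2 lower in PBS by a log2 fold change of -0.57 (SE 0.14, adjusted p = 0.0498), and no other member was called, against 5.02% of all genes, 0.412% higher and 4.61% lower. All 3 PBS libraries were below all 3 Control libraries for Gad2 and for Slc17a7 (-0.96, SE 0.26, adjusted p = 0.055). The Gad2 call stood in 1 of 6 fits without 1 library, that without Control 2 (adjusted p = 0.000866). Within batch C, where the Control library is Control 2, Gad2 differed by -0.27, and within batch CH by -0.49. Against Control, 0 members and 0% of all genes were called by edgeR for ShK-223 and for PAP-1. At an unadjusted p under 0.05 there were 3 members and 1027 genes for ShK-223 and 5 members and 2290 genes for PAP-1. DESeq2 called 0 members and 10 genes for ShK-223, and for PAP-1 4 members, all lower, and 383 genes. Limma-voom called 0 members and 0 genes in both.

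Other genes that handle the same transmitters were mixed in direction. The counts of this and the following lists stand against 18.8% of all genes called higher and 20.3% lower with ShK-223, and 21.1% higher and 22.6% lower with PAP-1. In glutamate handling 4 of 13 genes rose and 5 fell with ShK-223, and 3 rose and 5 fell with PAP-1. The astrocyte uptake transporter Slc1a2 rose from 1208 ± 340 to 2685 ± 463 CPM with ShK-223 (1.15, SE 0.23, adjusted p = 0.0077), and the neuronal transporter Slc1a1 rose by 1.34 (SE 0.17, adjusted p = 0.0037). Slc1a3, an astrocyte transporter abundant in Bergmann glia, fell by 1.18 (SE 0.26, adjusted p = 0.00913), and Slc1a6, the transporter of Purkinje cells, fell by 4.27 (SE 1.06, adjusted p = 0.0128). Slc17a8, the vesicular glutamate transporter VGLUT3, rose with ShK-223 by 2.77 (SE 0.65, adjusted p = 0.0109).

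In GABA handling 2 of 8 genes fell and none rose with ShK-223, and 2 fell and 1 rose with PAP-1. The GABA-degrading enzyme Abat fell from 428 ± 50.3 CPM in PBS to 294 ± 35.7 CPM in ShK-223 (-0.54, SE 0.14, adjusted p = 0.0144) and to 280.3 ± 30.1 CPM in PAP-1 (-0.61, SE 0.14, adjusted p = 0.00806). Slc6a11, an astrocyte GABA transporter, was at 68.4 to 161 CPM over all libraries and was not called. Among transcription factors of GABA neurons, Lhx6, of cortical interneurons, rose from 1.56 ± 1.94 CPM in PBS. It was at 19.6 ± 1.41 CPM with ShK-223 and 22.1 ± 3.88 CPM with PAP-1. Control 1 and 3, at 21.1 and 18.2 CPM, lay near the inhibitor groups, and Control 2 was at 5.46 CPM. Tfap2b and Pax2, of cerebellar GABA neurons, were at 60.3 ± 3.91 and 14.1 ± 3.64 CPM in PBS. In ShK-223 they were at 1.78 ± 1.21 and 0.255 ± 0.113 CPM. With PAP-1 Tfap2b fell by 3.54 (SE 1.27, adjusted p = 0.0439), and Pax2 was not called (-3.03, SE 1.38, adjusted p = 0.0965). Of the 9 factors tested 4 rose and 2 fell with ShK-223, and 4 rose and 1 fell with PAP-1. Their median log2 fold change was 2.81 for ShK-223 and 2.55 for PAP-1 against PBS, and -0.08 and -0.21 against Control.

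In glycine handling and receptors 2 of 11 genes rose and 3 fell with each inhibitor. Slc6a9, the astrocyte glycine transporter, fell from 52.3 ± 10.6 CPM in PBS to 27.3 ± 3.65 CPM in ShK-223 (-0.94, SE 0.22, adjusted p = 0.0102) and to 23.5 ± 2.32 CPM in PAP-1 (-1.16, SE 0.22, adjusted p = 0.00434). The receptor subunits Glra2 and Glra3 rose, Glra3 from 4.24 ± 1.20 to 13.9 ± 8.61 CPM with ShK-223 and 21.5 ± 5.71 CPM with PAP-1, and the subunit Glrb was not called. In acetylcholine handling 0 of 7 genes were called with ShK-223 and 2 fell with PAP-1, those named above.

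Of 10 catecholamine and serotonin genes tested, 2 fell with ShK-223 and 1 rose and 1 fell with PAP-1. Maoa, which degrades monoamines, fell from 45.7 ± 0.830 CPM to 30.1 ± 2.50 CPM with ShK-223 (-0.60, SE 0.11, adjusted p = 0.00581) and to 33.6 ± 3.20 CPM with PAP-1 (-0.45, SE 0.11, adjusted p = 0.0107), while Maob was not called. Gch1, which makes the cofactor of Th and Tph2, rose with PAP-1 from 0.786 ± 0.156 to 1.92 ± 0.443 CPM. Of 7 transcription factors of monoamine neurons tested, 2 fell with ShK-223 (En2 and Lmx1b) and 1 rose with PAP-1. The latter was Nr4a2, a factor of dopamine neurons that is also an activity-induced gene, at 82.1 to 87.2 CPM in PAP-1 against 24.9 to 45.0 CPM in PBS (1.19, SE 0.35, adjusted p = 0.0211).

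Receptors for monoamines and acetylcholine were more often called higher than lower. Of 27 tested, 13 rose and 2 fell with ShK-223, with a median log2 fold change of 1.52. With PAP-1 15 rose and 2 fell, with a median of 1.44, against -0.01 over all genes in both comparisons. Against Control the medians of these receptors were 0.42 for ShK-223 and 0.08 for PAP-1. The muscarinic receptor Chrm1 rose from 18.8 ± 22.8 CPM in PBS to 187 ± 24.0 CPM in ShK-223 (3.31, SE 0.87, adjusted p = 0.0152), and the serotonin receptor Htr3a from 0.809 ± 0.587 to 6.33 ± 1.57 CPM (2.94, SE 0.52, adjusted p = 0.00539). The dopamine receptors Drd1 and Drd2 of striatal neurons were not called. Drd2 was at 3.82, 60.0 and 28.0 CPM in ShK-223 and at 86.0, 4.42 and 69.0 CPM in Control. Within each of these groups the order of libraries was that of the summed striatum markers. Drd1 and Drd2 are themselves among those markers, so this likeness is in part built in.

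The genes whose level over the 12 libraries was most like each member were found by the root mean square difference of log2 CPM after centring, among 12986 or 12987 genes. For Slc17a7 they were Dyrk2 (0.11), Pdgfb (0.11) and Nrg3 (0.13), against 0.71 for the member's own deviation from its mean. For Gad1 they were Ercc6l2 (0.08), Abcg1 (0.09) and Xpa (0.10), and for Slc32a1 Itgb1bp1 (0.11), Mctp1 (0.13) and Phldb1 (0.15). For Slc6a5 they were Cbln1 (1.55), a secreted synapse organizer of cerebellar granule cells, Mab21l1 (1.59) and Ltbp2 (1.71), against 3.45 for its own deviation, and for Th Galnt15, Ntn1 (both 0.54) and Soga1 (0.56) against 1.41. For Chat they were Scn4b (0.53), a sodium channel subunit abundant in striatum, Slc5a7 (0.55) and Onecut2 (0.63). The nearest gene was Acan for Slc17a6 (0.53 against 0.90 for its own deviation), Ncapg2 for Gad2 (0.14 against 0.28), Pcsk1n for Tph2 (0.35 against 0.53) and Stk39 for Slc18a2 (0.20 against 0.30). Predicted gene models and genes of low mean level were left out of the genes compared. Chat and Tph2, at a mean log2 CPM of 0.93 and -0.17, were left out in this way and could not be listed. None of the other members was among the 3 genes most like another member.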

How the data were processed

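Per the labels, total RNA of whole brain from 12 mice with their own mouse numbers was sequenced, with a batch name (B, C or CH) of unstated meaning for each. The authors deposited 1 table of raw read counts per gene, made from reads aligned with STAR 2.7.11a to GRCm38, per the submitters' processing notes. The counting tool, strand setting and annotation were not given in the sources used here. Columns were matched to samples by library name. Replicate numbers follow sample order and pair nothing.

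The filter filterByExpr left 15061 genes of the deposited counts, and these were scaled by TMM and tested with the quasi-likelihood test of edgeR 4.0.16 under R 4.3.3, in 1 fit over the 12 libraries by group. Benjamini-Hochberg adjustment ran over all genes in each of 6 comparisons, and genes were called at 0.05. Each SE is the log2 fold change divided by the square root of F, and 95% intervals use it. CPM use TMM-scaled totals. CPM per kilobase divide by exon length in GENCODE M21 (GRCm38). Sampling differences between any 2 libraries were far exceeded (chi-square per gene at least 7.05), so none was a copy.

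All 10 members are named. Of the handling lists, fixed names and at most 2 further called genes a list are named. Members and lists were chosen with earlier results of these data known. The alternatives comprised DESeq2 1.42.0, limma-voom (limma 3.58.1), RLE size factors, 2 other filters, batch, RNA integrity or the cerebellar index as a term, the 2 groups alone, a threshold of 0.1, and fits without 1 or 2 libraries. The tests were tested on simulated data. The values of 1 gene of the handling lists are not reported here.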

Additional observations from a re-analysis of the deposited data

How the results depend on the processing

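Slc17a7, Slc32a1 and Gad1 kept their direction and their call against PBS, for both inhibitors, with RLE size factors, DESeq2, limma-voom, both other filters, RNA integrity as a term, the 2 groups alone and in all 6 fits without 1 library (adjusted p up to 0.0467). Batch as a term left 0 of 4 members called for ShK-223 against PBS and 0 of 1 for PBS against Control, but kept the 3 for PAP-1, where 4, 2 and 2752 of all 15061 genes were called. The cerebellar index as a term left 0 members called in all 6 comparisons, and 0 of all genes in 5 of them and 6 genes for PAP-1 against Control. Over all 60 member values it turned the sign of 17 and batch of 8. With the index, Slc6a5 turned to 6.61 for ShK-223 and 8.90 for PAP-1 against PBS, Th to 1.05 for PAP-1, and Gad2 to -0.34 for ShK-223. With batch, Gad2 for ShK-223 turned to -0.02 and Slc6a5 for PAP-1 to 1.32. Slc32a1 between the inhibitors ran from -0.01 to 0.25 without 1 library. The index nearly separates PBS from both inhibitor groups, so in these comparisons its part and that of the group cannot be told apart. Values with the index are thus no corrected effects. The cause of these turns was not tested. Without Control 2 and PAP-1 1, 5 members were called for PAP-1 against PBS, with Th at -3.34 and Slc6a5 at -3.70, and 5 for PBS against Control, beside 7595 and 7278 of 15213 genes. For PBS against Control the number called was 2 in DESeq2 and at a threshold of 0.1, 0 in limma-voom, without the filter, with RNA integrity as a term and with the 2 groups alone, and 0 to 4 without 1 library. For PAP-1 against Control DESeq2 called 4. Without 1 library the members called against PBS were 3 to 4 for ShK-223 and for PAP-1. Not divided by length, Gad1 over Gad2 was 2.78 in PBS, 1.67 in ShK-223 and 1.74 in PAP-1. No paired analysis was possible because the labels number no replicates. Depth limits Tph2, Chat and Th, which had 5 to 27, 6 to 138 and 11 to 173 counts per library.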
